A study of Mus musculus with 16 samples.

Results

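The comparison set 6 libraries of cultured mouse macrophages against 6 libraries of freshly lavaged cells, with the origin of the cells as a second factor. The cultured libraries were 3 of ex vivo cultured alveolar macrophages (mexAM) and 3 of bone marrow derived macrophages (BMDM), and the fresh libraries were 3 of bronchoalveolar lavage cells (BALF) and 3 of peritoneal lavage cells (PLF). These 12 were chosen by their labelled cell type from the 16 libraries of the series, and mexAM and BALF stood for lung origin while BMDM and PLF stood for other origin. Each of the 4 groups held 1 library from each of mice 1, 2 and 4, and every mouse was labelled wild type of the C57BL/6 strain, with no treatment named for any group. Age, sex, culture medium, time in culture and the passage of the single-mouse cultures were not in the labels. The other 4 libraries were cultures of pooled lavage at passages 5, 8, 10 and 13, which belong to no single mouse and entered no test. The lung pair (mexAM against BALF) compared cultured and fresh cells of 1 tissue, whereas the other pair (BMDM against PLF) compared cells that also differ in origin, so in that pair culture and origin cannot be told apart.

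Macrophages are long-lived phagocytes whose gene expression is set by the tissue they live in. Alveolar macrophages clear surfactant lipid and inhaled particles under the control of GM-CSF and PPARG, and large peritoneal macrophages depend on GATA6. Bone marrow derived macrophages are grown from progenitors with M-CSF. Taking cells out of a tissue by lavage and growing them in a dish changes their supply of oxygen, growth factors and lipid, and tissue handling is known to switch on stress and immediate early genes. RNA was counted from the 3' end of polyadenylated transcripts (QuantSeq), so a level below is in CPM, the count divided by the library's total and scaled by the trimmed mean of M-values (TMM).

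The 12 libraries held 985582 to 2427996 counts on genes, so 1 count was worth 0.412 to 1.01 CPM before TMM scaling. A set of 20 general macrophage genes had no member at 0 in any group, and its summed level was 20732 to 31510.3 CPM in mexAM, 21782 to 26577 CPM in BALF, 24359 to 29478 CPM in BMDM and 23266 to 25862 CPM in PLF. Genes typical of alveolar macrophages summed to 27153 to 30939.5 CPM in mexAM and 33596 to 38269 CPM in BALF, and those of large peritoneal macrophages to 23646 to 30750.1 CPM in PLF, with at most 484.3 CPM in any other library. PLF also carried RNA of other cells. The 18 B cell genes summed to 169.7 to 186 CPM in BMDM and 3324 to 3639.7 CPM in PLF, against 70.5 to 124 CPM in mexAM and 61.8 to 107 CPM in BALF. The 10 mast cell genes summed to 7.17 to 21.7 CPM in BMDM and 1964 to 2127 CPM in PLF, with none at 0 in PLF and 7 at 0 in mexAM. The sum of the 13 neutrophil genes ran the other way, at 340.2 to 811 CPM in mexAM and 142 to 167 CPM in BALF, and at 2131 to 5724 CPM in BMDM and 58.0 to 106 CPM in PLF. Of the 10 tested, only 2 (S100a8 and Cxcr2) were higher in mexAM than in BALF, where the list's median log2 change was -1.08. In the other pair 9 were higher in BMDM than in PLF. The 4 haemoglobin genes summed to 39.1, 499 and 727 CPM in BALF of mice 1, 2 and 4, against at most 18.2 CPM elsewhere. The calls were therefore repeated without the BALF of mice 2 and 4. That result is given below for some lists only, and a list given without it is not thereby stable. In bulk RNA, fewer cells of a type and less RNA per cell cannot be told apart. The part of these cells in the differences between groups was not tested, and the PLF values below carry it.

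**Figure D1:**
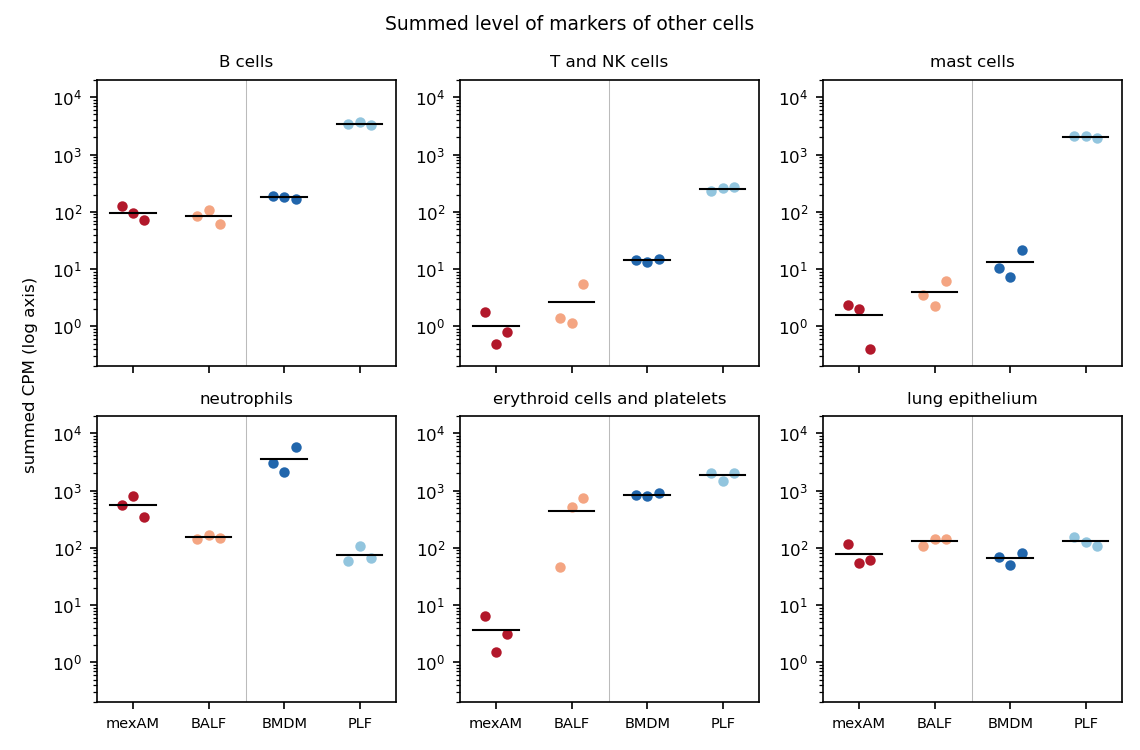
Summed CPM (log axis) of marker genes of 6 other cell types in each library of mexAM, BALF, BMDM and PLF, with a bar at the group mean. B cell, T and NK cell and mast cell genes were high in the 3 PLF libraries and neutrophil genes in the 3 BMDM libraries. The erythroid and platelet sum was highest in PLF (1478 to 2049 CPM), then BMDM (801 to 909 CPM), and varied from 46.1 to 747 CPM between the 3 BALF libraries.

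Averaged over both origins, 2071 of 10011 genes were higher in cultured cells (20.7% of those tested) and 2006 were lower (20.0%), by edgeR's quasi-likelihood test at a Benjamini-Hochberg adjusted p under 0.05. The median change over all genes was 0.01 on the log2 scale. Scaling by library totals alone moved that median to 0.13 and the share of calls that were higher to 62.8%, against 50.8% with TMM. An average can hide a change present in a single pair, so the pairs were also read apart. In the lung pair 1522 genes were higher (15.2%) and 1485 lower (14.8%) in mexAM than in BALF. In the other pair 1846 were higher (18.4%) and 1806 lower (18.0%) in BMDM than in PLF. A gene was taken as common to culture when it was called in the same direction in both pairs. There were 476 such rises (4.75%) and 509 such falls (5.08%), so 31.3% of the rises in the lung pair and 25.8% of those in the other pair were shared, and 34.3% and 28.2% of the falls. All 6 cultured libraries lay above all 6 fresh ones for 227 of the common rises and below them for 263 of the common falls, while over all genes tested 3.59% lay above and 3.77% below.

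The interaction asks whether the change from fresh to cultured differed between lung and other origin. It passed the test for 2098 genes (21.0%), of which 934 (9.33%) were more positive in the lung pair and 1164 (11.6%) more positive in the other pair. Of these, 366 were called in opposite directions in the pairs (3.66% of genes tested): 155 were higher in mexAM and lower in BMDM (1.55%), and 211 were lower in mexAM and higher in BMDM (2.11%). A further 139 were common changes of unequal size, 644 were called in the lung pair alone and 867 in the other pair alone. Of the 4077 genes called for the average over origins (40.7%), 985 were common, 2599 were called in 1 pair, 82 were called in opposite directions and 411 in neither pair. Without the BALF of mice 2 and 4, which leaves 1 BALF library, common rises numbered 180 and common falls 266, of which 170 and 257 were among those above.

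**Figure D2:**
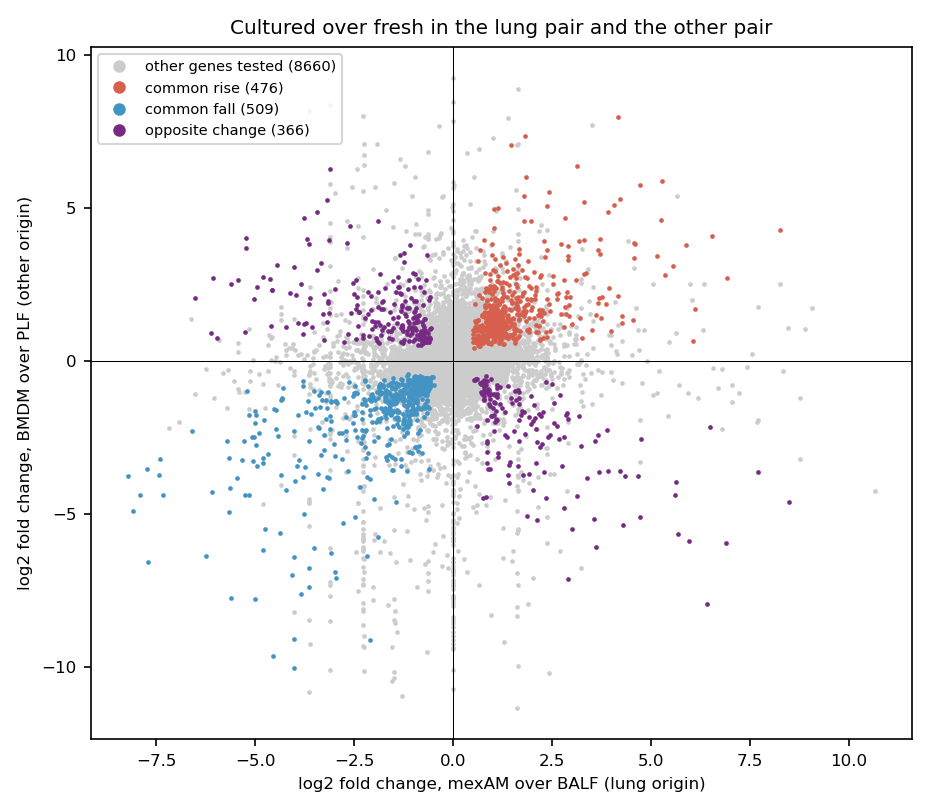
Each point is 1 of 10011 genes, with its log2 fold change of mexAM over BALF on the x axis and of BMDM over PLF on the y axis. Common rises (476, upper right) and common falls (509, lower left) lie off the 366 genes that changed in opposite directions (upper left and lower right).

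The 12 largest common rises and 12 largest common falls below were taken among genes whose cultured and fresh libraries did not overlap and that reached a mean of 50 CPM. Among the rises, a few were of nearly the same size in both origins. Fads1 on chromosome 19 (chr19:10182888-10196877), the delta-5 desaturase that makes long polyunsaturated fatty acids, had 87.3, 104 and 84.7 CPM in mexAM of mice 1, 2 and 4, against 9.77, 5.65 and 4.48 CPM in BALF. It had 68.4, 69.8 and 62.6 CPM in BMDM, against 3.30, 6.58 and 7.65 CPM in PLF. All 6 cultured libraries were above all 6 fresh ones, and the log2 changes were 3.73 ± 0.29 in the lung pair and 3.498 ± 0.29 in the other pair (± SE), with an interaction of 0.23 ± 0.46 (adjusted p = 0.785). Nrp1, a co-receptor for semaphorins and VEGF, had 296, 378 and 467 CPM in mexAM, against 70.5, 67.8 and 137 CPM in BALF. It had 925, 816 and 709 CPM in BMDM, against 98.2, 114 and 111 CPM in PLF, and the log2 changes were 2.05 ± 0.26 and 2.92 ± 0.26, a difference that did not pass the interaction test (adjusted p = 0.0923). The linker histone gene H1f0 averaged 110.4 ± 54.2 CPM in mexAM and 7.40 ± 4.67 CPM in BALF, and 86.2 ± 14.8 CPM in BMDM and 23.9 ± 15.0 CPM in PLF (SD, n = 3 each), without overlap between cultured and fresh libraries.

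Other common rises were larger in 1 origin. Cd93, a membrane lectin of myeloid cells and endothelium, had 558, 519 and 472 CPM in mexAM, against 44.7, 39.5 and 28.6 CPM in BALF, and 957 ± 112 CPM in BMDM, against 222 ± 59.7 CPM in PLF (mean ± SD, n = 3 each). Its log2 rise was 3.77 ± 0.25 in the lung pair and 2.10 ± 0.22 in the other pair (interaction 1.67 ± 0.32, adjusted p = 0.000999). Acsl3, which activates fatty acids for lipid droplets, averaged 213 ± 3.47 CPM in mexAM and 10.6 ± 3.37 CPM in BALF, and 36.0 ± 7.02 CPM in BMDM and 12.7 ± 1.07 CPM in PLF, and its exons overlap those of Utp14b on the same strand, so reads of the pair may be shared. Gsn (gelsolin, an actin-severing protein) rose more in the other pair, to 221 ± 35.5 CPM in BMDM, against 9.17 ± 2.47 CPM in PLF, than in the lung pair, where it had 346 ± 217 CPM in mexAM and 87.9 ± 14.5 CPM in BALF. The same holds for Ms4a7, a membrane protein of the MS4A family, with 29.1, 33.8 and 29.1 CPM in mexAM, 13.3, 14.7 and 5.37 CPM in BALF, 1395, 1509.9 and 1175 CPM in BMDM and 11.2, 13.2 and 6.47 CPM in PLF. Trem2, a lipid-sensing receptor, averaged 43.4 ± 23.8 CPM in mexAM and 20.9 ± 1.07 CPM in BALF, and 312 ± 74.2 CPM in BMDM and 9.64 ± 5.16 CPM in PLF. S100a8, a calcium-binding protein abundant in neutrophils, had 352, 398 and 92.9 CPM in mexAM and 47.5, 59.9 and 51.0 CPM in BALF, and 1140.3, 805 and 2229 CPM in BMDM and 23.1, 39.5 and 28.8 CPM in PLF. S100a8 is itself part of the neutrophil sum, which was 554, 811 and 340 CPM in mexAM, so that sum is not separate from it. Its usual partner S100a9 had 14.6, 7.95 and 5.91 CPM in mexAM, against 19.5, 29.4 and 16.1 CPM in BALF, and did not pass the test in the lung pair. Rab3il1, Lst1 and B3gnt8 were the remaining common rises by size, each larger in the other pair. Without the BALF of mice 2 and 4 the calls of Trem2, Lst1, B3gnt8, Ms4a7 and S100a8 as common were lost, and their lung changes were the smaller ones. That of Trem2 was also lost with the mouse as a block and without any single BALF library, BMDM of mouse 1 or 2, PLF of mouse 4 or mexAM of mouse 2. That of B3gnt8, whose exons overlap Bckdha, was lost with DESeq2 and without BALF of mouse 1 or 2, BMDM of mouse 1 or mexAM of mouse 1 or 4. Leaving out BALF of mouse 1 lost that of Rab3il1, and leaving out mexAM of mouse 4 lost that of Lst1.

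Cd2 on chromosome 3 (chr3:101275899-101287939), an adhesion receptor best known from T cells, was the largest common fall. It had 1.16, 1.99 and 0 CPM in mexAM, against 180.1, 236 and 236 CPM in BALF, and 0.441, 1.30 and 0.585 CPM in BMDM, against 71.8, 78.2 and 77.7 CPM in PLF. The log2 changes were -7.70 ± 0.39 in the lung pair and -6.56 ± 0.43 in the other pair. The 17 T and NK cell genes summed to at most 5.37 CPM in every BALF library, but to 227 to 270 CPM in PLF, against 13.0 to 15.2 CPM in BMDM. The part of lymphocytes in the PLF level of Cd2 was not tested. Fn1 (fibronectin), an extracellular matrix protein, had 6.41, 8.44 and 4.33 CPM in mexAM, against 312, 319.7 and 307 CPM in BALF, and 26.5, 30.6 and 63.8 CPM in BMDM, against 7916, 8273 and 9561 CPM in PLF. The fall was larger in the other pair, at -7.74 ± 0.36, than in the lung pair, at -5.62 ± 0.36 (interaction adjusted p = 0.00313). Slpi, a secreted inhibitor of neutrophil elastase, had 40.2, 12.9 and 27.2 CPM in mexAM, against 384, 332 and 431 CPM in BALF, and 20.3, 14.3 and 28.1 CPM in BMDM, against 3784, 4375 and 4147 CPM in PLF, so the mexAM and BMDM ranges overlapped while BALF and PLF stood apart. Nt5e (CD73), which makes adenosine from AMP outside the cell, was counted in 1 of 3 mexAM libraries, at 0.788 CPM, against 24.4, 36.1 and 30.4 CPM in BALF, a ratio of 92.2 with a counting interval of 24.9 to 771.5. In the other pair it had 2.65, 1.30 and 4.68 CPM in BMDM, against 235, 236 and 268 CPM in PLF. Pdlim1, a PDZ and LIM domain protein of the actin cytoskeleton, averaged 0.360 ± 0.314 CPM in mexAM and 96.1 ± 10.4 CPM in BALF, and 3.22 ± 1.98 CPM in BMDM and 68.5 ± 18.8 CPM in PLF. Clec4e (Mincle), a receptor for glycolipids of mycobacteria and fungi, had 6.41, 6.46 and 1.18 CPM in mexAM, against 137, 124 and 424 CPM in BALF, and 62.6, 40.4 and 53.3 CPM in BMDM, against 496, 2139 and 2159 CPM in PLF. The interaction was not called (-0.74 ± 0.98, adjusted p = 0.652). Ms4a8a fell by 4.76 and 5.48 on the log2 scale in the lung and other pair.

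**Figure D3:**
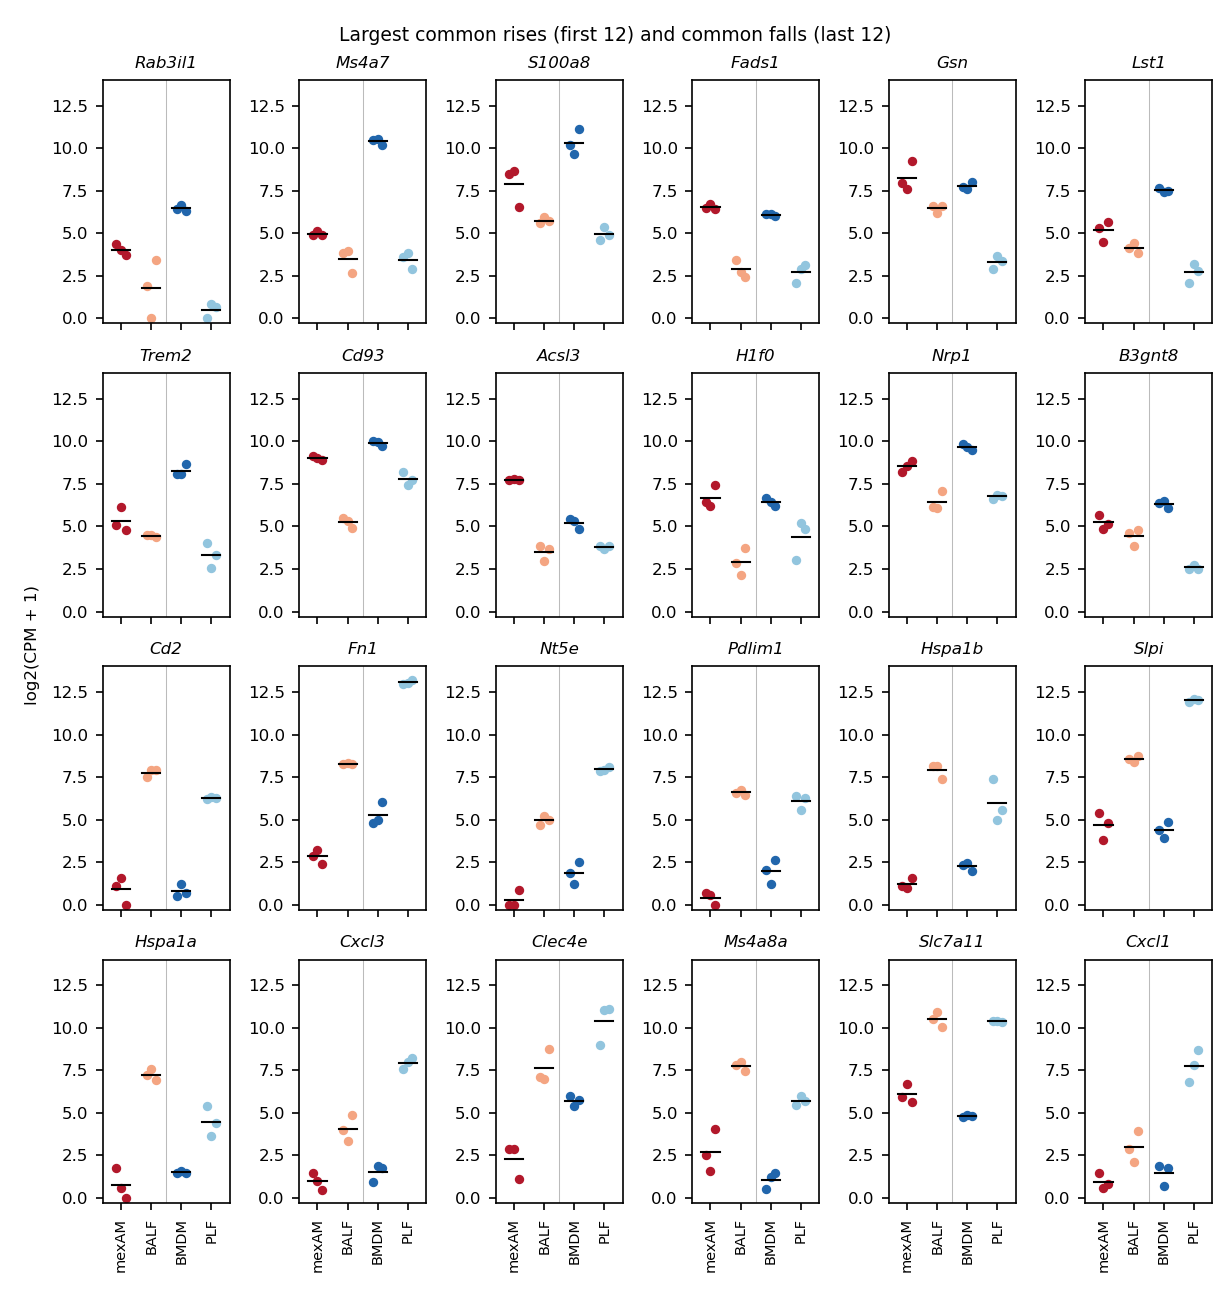
Level of the 12 largest common rises and 12 largest common falls in each library, as log2(CPM + 1), with a bar at the mean of the 3 libraries of mexAM, BALF, BMDM and PLF. The cultured libraries (dark points) lie on 1 side of the fresh ones (light points) in every panel because genes were chosen that way. The distance between them differs between the lung and other pair for Ms4a7 and Gsn, and for Fads1 no interaction was called.

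Heat shock chaperones, which refold proteins and are induced by HSF1, had the largest share of common falls among lists with 12 or more members tested. Of 17 members tested, 11 fell on average over both origins and none rose, and 8 fell in both pairs. Over all genes tested 20.0% fell and 20.7% rose on average, and 5.08% fell and 4.75% rose in both pairs. The counts of each list below are to be read beside these shares. Hspa1a and Hspa1b, neighbouring and nearly identical genes for the inducible HSP70, fell most. Hspa1a had 2.33, 0.497 and 0 CPM in mexAM, against 146, 191 and 121 CPM in BALF, and 1.76, 1.96 and 1.76 CPM in BMDM, against 41.5, 11.5 and 20.00 CPM in PLF. Hspa1b had 1.16, 0.994 and 1.97 CPM in mexAM, against 285, 282 and 165 CPM in BALF, and 3.97, 4.56 and 2.93 CPM in BMDM, against 163, 30.4 and 46.5 CPM in PLF. Counts of such close copies may have been split between them, so their separate values are uncertain, but no fresh library of either gene was as low as any cultured one. The HSP90 gene Hsp90aa1 averaged 195 ± 11.8 CPM in mexAM and 398 ± 127 CPM in BALF, and 111 ± 26.6 CPM in BMDM and 249 ± 77.2 CPM in PLF, with log2 changes of -1.03 ± 0.26 and -1.16 ± 0.26. The co-chaperone gene Bag3 fell more in the lung pair (interaction -1.35 ± 0.35, adjusted p = 0.0104). The constitutive family member Hspa8 had a log2 difference of -0.07 ± 0.23 and was not called (adjusted p = 0.835). The count of 8 common falls was 4 without BMDM of mouse 1 or of mouse 2 and 5 without PLF of mouse 1. The list's share of common falls, 47.1%, was close to the 46.7% of MHC class II presentation. That list kept 7 of 15 in these 3 settings, so the first rank of the chaperones did not hold there. Hspa1a, Hspa1b, Hsp90aa1 and Dnajb4 were common falls with any single library left out.

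The promoters of the pair carry the letters GAANNTTC, the core of the element that HSF1 binds, and CCAAT, and are shown because these 2 chaperones fell furthest. The windows run from 250 bases before to 50 after the start in RefSeq's GRCm38.p6, both on the minus strand, at chr17:34959189-34959488 for Hspa1b and chr17:34972107-34972406 for Hspa1a. Capitals mark the motif matches on either strand, where ATTGG is CCAAT read on the other strand.
Hspa1b: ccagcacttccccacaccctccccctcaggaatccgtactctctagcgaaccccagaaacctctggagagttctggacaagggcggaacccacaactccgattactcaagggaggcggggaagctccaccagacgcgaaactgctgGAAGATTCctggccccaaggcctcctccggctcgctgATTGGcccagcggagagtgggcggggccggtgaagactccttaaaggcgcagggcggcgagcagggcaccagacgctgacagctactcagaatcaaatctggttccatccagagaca
Hspa1a: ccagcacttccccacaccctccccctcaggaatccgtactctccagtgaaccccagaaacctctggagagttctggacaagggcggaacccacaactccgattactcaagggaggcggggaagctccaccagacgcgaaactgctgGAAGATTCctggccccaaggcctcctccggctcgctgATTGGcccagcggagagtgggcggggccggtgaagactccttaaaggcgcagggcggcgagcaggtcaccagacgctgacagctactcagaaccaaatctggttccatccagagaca
GAANNTTC was present in 8 of 14 heat shock chaperone promoters that had a window (57.1%), against 5.44% of the 7797 promoters of genes tested and 7.95% of all 27025 promoters. The list was made of genes known from the HSF1 response, so its share follows from that choice. GAANNTTC was in 29 of 365 promoters of common falls (7.95%) and 14 of 380 of common rises (3.68%). Common falls include chaperones of this list, Hspa1a and Hspa1b among them, so those shares are not separate. A match describes the letters in this window and is not a measured binding site.

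Chaperones of the endoplasmic reticulum and genes of its unfolded protein response were lower in cultured cells in 13 of 21 and higher in none, with 6 common falls. Hspa5 (BiP), the main chaperone of this compartment, had 1107, 602 and 658 CPM in mexAM, against 2073, 2571 and 1978 CPM in BALF, and 1023, 1013 and 993 CPM in BMDM, against 1729, 2896 and 3464 CPM in PLF. The fall was -1.48 ± 0.27 in the lung pair and -1.42 ± 0.27 in the other pair, with an interaction of -0.07 ± 0.37 (adjusted p = 0.935). Manf, a secreted stress protein, and Ddit3 (CHOP), a transcription factor of prolonged stress, also fell in both pairs, with average log2 changes of -1.59 ± 0.18 and -1.37 ± 0.17. Exons of both overlap a gene on the opposite strand, Manf those of Rbm15b on the same strand too, and no label says whether counting used strand.

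NRF2 target genes, which detoxify electrophiles and supply glutathione and thioredoxin, held 13 falls and 3 rises among 21 tested, with 8 common falls and no common rise. Slc7a11 on chromosome 3 (chr3:49892526-50443614), the cystine importer, had 61.1, 103 and 49.6 CPM in mexAM, against 1481, 1937 and 1064 CPM in BALF, and 25.6, 28.0 and 27.5 CPM in BMDM, against 1349.7, 1340.5 and 1290.3 CPM in PLF. Every fresh library was above every cultured one, and the log2 falls were -4.39 ± 0.29 and -5.62 ± 0.31. Hmox1, which breaks down haem, had 264, 267 and 308 CPM in mexAM, against 12334, 12935 and 7406 CPM in BALF, and 262, 293 and 506 CPM in BMDM, against 3378, 1532 and 1593 CPM in PLF. Its fall was larger in the lung pair (interaction -2.67 ± 0.47, adjusted p = 0.000573). The mexAM and BMDM ranges overlapped, while every BALF library was above every PLF library. Srxn1 (sulfiredoxin) had 48.3, 56.6 and 39.4 CPM in mexAM, against 1360.2, 1807 and 884 CPM in BALF, and 79.8, 67.2 and 131 CPM in BMDM, against 1547, 587 and 676 CPM in PLF. The glutathione synthesis genes Gclc and Gclm averaged log2 falls of -2.68 ± 0.31 and -2.15 ± 0.29, the thioredoxin reductase gene Txnrd1 -2.62 ± 0.22, and the autophagy receptor gene Sqstm1 -1.92 ± 0.17, each without overlap between cultured and fresh libraries. PLF of mouse 1 had the highest level of Hmox1, Srxn1, Gclc, Gclm and Txnrd1 among the PLF libraries. The glutathione transferase gene Gstm1 had 448 ± 74.5 CPM in mexAM and 673 ± 74.0 CPM in BALF, and 156 ± 20.5 CPM in BMDM and 36.5 ± 4.14 CPM in PLF, an opposite change that was lost with scaling by library totals, with no filter on low counts, and without BALF of mouse 1 or 2, mexAM of mouse 1 or 4, or the BALF of mice 2 and 4. In 10 of the 21 genes the interaction was negative and called, and the list's median was -1.95 in the lung pair and -0.11 in the other pair. Without the BALF of mice 2 and 4 the interaction calls fell from 11 in either direction to 6, while the 8 common falls were 8.

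Immediate early genes, switched on within minutes by growth factors and stress, differed between the pairs. Of 27 tested, 21 were lower in cultured cells on average and none higher, but 24 were lower in BMDM than in PLF and 7 lower in mexAM than in BALF. In mexAM 4 were higher than in BALF, and these 4 were opposite changes. The list summed to 5611, 8445 and 12553 CPM in PLF of mice 1, 2 and 4, so the fresh side of the other pair was uneven. The 6 common falls were Atf3, Dusp1, Nr4a1, Klf6, Maff and Fosl1, and Dusp1 shares exonic sequence with Ergic1 on the opposite strand. Nr4a1, a nuclear receptor, had 2.33, 2.98 and 14.2 CPM in mexAM, against 42.6, 47.4 and 58.2 CPM in BALF, and 8.82, 8.48 and 9.95 CPM in BMDM, against 33.6, 92.2 and 129 CPM in PLF. Dusp1, a phosphatase that switches off MAP kinases, had 197, 282 and 170.1 CPM in mexAM, against 842, 1056 and 632 CPM in BALF, and 171, 123 and 184 CPM in BMDM, against 181, 356 and 611 CPM in PLF. Fos was not called in either pair (log2 -0.06 ± 0.59 and 0.31 ± 0.61), and its PLF libraries spread from 33.0 to 274 CPM. Klf4 and Klf2 were opposite changes with any single library left out. Klf4, a zinc finger factor of monocytes and resident macrophages, had 761, 412 and 560.3 CPM in mexAM, against 129, 142 and 156 CPM in BALF, and 12.8, 23.5 and 28.1 CPM in BMDM, against 46.8, 63.4 and 132 CPM in PLF (interaction 3.96 ± 0.51, adjusted p = 5.55e-05). The interaction was positive for 13 of the 27 and negative for none. With no filter on low counts the common falls were 11. Atf3, Nr4a1 and Fosl1 were common falls with any single library left out. The common call of Dusp1 was lost without BMDM of mouse 2 or PLF of mouse 4, and that of Maff without BALF of mouse 1 or 2 or mexAM of mouse 1 or 4. That of Klf6 was lost with the mouse as a block and without BALF of mouse 1, any BMDM library, PLF of mouse 1 or 4, or mexAM of mouse 4.

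The circadian clock list held 9 falls and 1 rise among 17 tested (the rise was 1 to 3 genes with 1 library left out), with 6 common falls: Clock, Arntl, Nr1d1, Nr1d2, Cry2 and Bhlhe40. Nr1d1 (REV-ERB alpha), a repressor within the clock, had 3.49, 3.97 and 5.91 CPM in mexAM, against 20.2, 31.6 and 17.9 CPM in BALF, and 5.29, 2.61 and 5.27 CPM in BMDM, against 16.5, 20.6 and 27.1 CPM in PLF, though its exons overlap Thra on the opposite strand. The sources used here do not give the hour at which cells were taken. The glucocorticoid target Klf9, a Kruppel-like factor, had 64.6, 38.2 and 86.2 CPM in mexAM, against 296, 281 and 186 CPM in BALF, and 68.8, 61.9 and 77.8 CPM in BMDM, against 335, 469 and 473 CPM in PLF, a fall in both pairs (interaction 0.61 ± 0.37, not called). Of 13 glucocorticoid responsive genes tested, 3 fell, a share near the 20.0% of all genes (5 fell without BALF of mouse 4), and 1 rose (2 without BALF or BMDM of mouse 2). Klf9 was a common fall with any single library left out, and the common fall of Sgk1 was lost with scaling by library totals, without mexAM of mouse 1, or without the BALF of mice 2 and 4. The clock's 6 common falls were 3 with scaling by library totals, without PLF of mouse 1, or without the BALF of mice 2 and 4. Nr1d1 and Bhlhe40 kept the call with any single library left out. It was lost for Clock without BMDM or PLF of mouse 1, and for Nr1d2 without any single BMDM or PLF library. For Cry2 it was lost with DESeq2, scaling by library totals or no filter on low counts, and without BALF of mouse 1 or 2 or mexAM of mouse 1 or 4. For Arntl it was lost without BALF of mouse 1 or 2, BMDM of mouse 2 or 4, PLF of mouse 1 or 2, or mexAM of mouse 1 or 2.

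Inflammatory cytokines and NF-kB targets were lower in cultured cells in 19 of 28 tested, higher in none, and fell in both pairs in 12. The neutrophil chemoattractants stood out by size. Cxcl3 had 1.75, 0.994 and 0.394 CPM in mexAM, against 14.7, 9.04 and 27.8 CPM in BALF, and 0.882, 2.61 and 2.34 CPM in BMDM, against 190.5, 253 and 295 CPM in PLF. Cxcl2 had 55.3, 133 and 132 CPM in mexAM, against 214, 262 and 800.3 CPM in BALF, and 137, 121 and 189.6 CPM in BMDM, against 2669, 3350 and 4295 CPM in PLF. Cxcl1 fell to 1.88 ± 1.07 CPM in BMDM, against 247 ± 148 CPM in PLF, and to 1.01 ± 0.654 CPM in mexAM, against 8.00 ± 5.67 CPM in BALF, and was no longer common without BALF of mouse 4, mexAM of mouse 2 or mexAM of mouse 4. Inhibitors of the NF-kB pathway were among the common falls beside its subunits. Tnfaip3 (A20), which dampens NF-kB, had 4.08, 18.4 and 5.12 CPM in mexAM, against 27.2, 44.1 and 68.9 CPM in BALF, and 41.5, 21.5 and 26.9 CPM in BMDM, against 129.8, 198 and 255 CPM in PLF. Nfkbia (I kappa B alpha) fell by 1.66 and 1.63 on the log2 scale, and Nfkb1, Nfkb2, Rel and Relb fell in both pairs. Tnf averaged 29.8 ± 10.5 CPM in mexAM and 105 ± 30.9 CPM in BALF, and 16.9 ± 1.22 CPM in BMDM and 61.3 ± 34.6 CPM in PLF. Il1b was lower in BMDM than in PLF (log2 -2.93 ± 0.70) and had a log2 difference of 0.88 ± 0.72 in the lung pair, which was not called. These genes varied within the fresh groups: the list summed to 2282, 2772 and 5198 CPM in BALF of mice 1, 2 and 4, and to 6432, 13208 and 15726 CPM in PLF. The 12 common falls were 6 without BALF of mouse 4 and 2 without the BALF of mice 2 and 4, where the 19 average falls were 12. Tnf, Cxcl2, Cxcl3, Tnfaip3, Nfkb1 and Birc3 were common falls with any single library left out. Rel, Relb, Nfkb2 and Nfkbia were not without BALF of mouse 4, nor Nfkb2 without mexAM of mouse 1, nor Nfkbia without BMDM or PLF of mouse 4 or mexAM of mouse 1 or 4.

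Receptors that sense microbes went both ways. Of 20 Toll-like receptors and adaptors tested, 8 rose and 8 fell, with 3 common rises and 3 common falls, of which Tlr3, Tlr2 and Cd14 were called with any single library left out. Tlr2, which senses bacterial lipopeptides, had 156, 108 and 150.4 CPM in mexAM, against 305, 319.7 and 971 CPM in BALF, and 189, 172 and 96.6 CPM in BMDM, against 475, 652 and 704 CPM in PLF, with an interaction of 0.05 ± 0.55. Cd14, the co-receptor for lipopolysaccharide, had 11.6, 34.3 and 42.9 CPM in mexAM, against 154, 133 and 151 CPM in BALF, and 329.5, 261 and 314 CPM in BMDM, against 1331, 1912 and 1713 CPM in PLF. Within each origin the groups did not overlap, and the log2 changes were -2.28 ± 0.32 and -2.45 ± 0.30 (interaction 0.17 ± 0.43, not called). Tlr3, the endosomal sensor of double-stranded RNA, averaged 11.97 ± 3.08 CPM in mexAM and 3.27 ± 1.38 CPM in BALF, and 15.2 ± 5.33 CPM in BMDM and 2.19 ± 0.673 CPM in PLF. Clec7a (Dectin-1), the receptor for fungal beta-glucan, fell in both pairs, with log2 changes of -2.30 ± 0.26 and -1.90 ± 0.26. The count of 3 common rises was 1 without the BALF of mice 2 and 4, where 4 fell on average, and 1 with DESeq2. Interferon stimulated genes gave 4 rises and 2 falls among 30 (the falls were 1 to 4 with 1 library left out). Both counts lay below the 20.7% and 20.0% of all genes tested. In the pairs 12 were higher in BMDM than in PLF, against 18.4% of all genes, and 1 higher in mexAM than in BALF, against 15.2%. Cxcr2, a receptor for the neutrophil chemoattractants above, rose in both pairs, to 160.1, 392 and 185 CPM in mexAM, against 6.28, 11.3 and 13.4 CPM in BALF, and 15.9, 7.82 and 27.5 CPM in BMDM, against 0.659, 2.47 and 0.588 CPM in PLF. It is also 1 of the neutrophil genes. The complement receptor gene C5ar1 averaged 400.4 ± 69.4 CPM in mexAM and 93.1 ± 7.71 CPM in BALF, and 284 ± 42.9 CPM in BMDM and 147 ± 61.6 CPM in PLF, a common rise.

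Genes of MHC class II presentation, which display peptides to CD4+ T cells, fell in 12 of 15 (9 without BALF of mouse 4), with 7 common falls, and 7 with any single library left out. H2-Aa, a class II chain, had 5.24, 5.96 and 5.12 CPM in mexAM, against 175, 183 and 201 CPM in BALF, and 269, 203 and 555 CPM in BMDM, against 1072, 2379.8 and 2221 CPM in PLF. The invariant chain gene Cd74 averaged 4.19 ± 1.59 CPM in mexAM and 132 ± 31.7 CPM in BALF, and 172 ± 130.1 CPM in BMDM and 698 ± 46.4 CPM in PLF. The falls were larger in the lung pair for both, with interactions of -2.62 ± 0.55 and -2.98 ± 0.65. Cd86, a costimulatory ligand, had 2.33, 0.497 and 2.76 CPM in mexAM, against 46.8, 21.5 and 60.9 CPM in BALF, and 59.1, 69.8 and 29.8 CPM in BMDM, against 248, 243 and 244 CPM in PLF. B cells also use class II genes and Cd86, and their summed markers were high in PLF, while in BALF they overlapped those of mexAM and 10 of the 18 were at 0. The 13 dendritic cell genes summed to 7.45 to 21.5 CPM in mexAM and 140 to 150 CPM in BALF, and to 374 to 413 CPM in BMDM and 217 to 468 CPM in PLF. The part of either cell type in these falls was not tested. The protease gene Ctss, which trims the invariant chain, changed in opposite directions, with 1616 ± 236 CPM in mexAM and 6744 ± 833 CPM in BALF, and 4576 ± 479.8 CPM in BMDM and 2193 ± 198 CPM in PLF. In the MHC class I list 5 of 17 fell and 2 rose, against 20.0% and 20.7% of all genes tested. The list's rises were 1 without BALF of mouse 2, BMDM of mouse 1 or 2, PLF of mouse 1 or 2, or mexAM of mouse 2. Its common fall, H2-Q7, was lost without BALF of mouse 4, and without the BALF of mice 2 and 4 the list had 0 rises and 0 common falls.

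Matrix genes and proteases gave 10 falls and 2 rises among 21, with 3 common falls (5 with DESeq2): Fn1, Ecm1 and Plaur. Their medians lay on opposite sides, at -2.41 in the lung pair and 1.40 in the other pair. Mmp12, the macrophage elastase, had 2.91, 2.48 and 3.94 CPM in mexAM, against 96.3, 88.1 and 54.6 CPM in BALF, and 65.7, 69.1 and 729 CPM in BMDM, against 44.2, 43.6 and 47.1 CPM in PLF, so its rise in the other pair was uneven between mice. Its opposite change was not called with the mouse as a block, with no filter on low counts, or without BMDM of mouse 4 or any single PLF library. In the TGF-beta pathway, which in the lung instructs alveolar macrophages, 7 of 18 fell, 2 rose (1 without BALF, BMDM or PLF of mouse 2 or BMDM or PLF of mouse 4) and 5 were common falls (Tgfb2, Smad7, Skil, Pmepa1 and Tgif1). Skil and Smad7 are feedback inhibitors induced by the pathway. Skil had 195, 149.5 and 111 CPM in mexAM, against 211, 256 and 293 CPM in BALF, and 148, 132 and 98.9 CPM in BMDM, against 401, 441 and 492 CPM in PLF. Its common call was lost with scaling by library totals and without BALF of mouse 2 or 4 or mexAM of mouse 4. The 5 were 2 without the BALF of mice 2 and 4.

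Enzymes of fatty acid oxidation, which feed acetyl groups to mitochondria, had the largest share of common rises among lists with 12 or more members tested. At 27.3% it was close to the 26.1% of cholesterol synthesis. Of 22 tested, 16 rose on average, none fell, and 6 rose in both pairs: Acads, Acaa2, Acaa1a, Etfb, Hsd17b4 and Echs1. Acads, the short-chain acyl-CoA dehydrogenase, had 157, 128 and 128 CPM in mexAM, against 69.1, 58.7 and 62.7 CPM in BALF, and 32.2, 35.9 and 39.8 CPM in BMDM, against 17.8, 18.1 and 10.6 CPM in PLF. Echs1, the enoyl-CoA hydratase of the next step, had 62.9, 53.2 and 52.4 CPM in mexAM, against 32.8, 21.5 and 28.6 CPM in BALF, and 57.8, 41.7 and 44.5 CPM in BMDM, against 17.8, 23.04 and 22.4 CPM in PLF, though its exons overlap Paox on the opposite strand. Levels of Acads were higher in lung than in other cells in both states, and its log2 rises were 1.11 ± 0.20 and 1.22 ± 0.24 (interaction -0.12 ± 0.31, adjusted p = 0.837). Acaa2, the thiolase of the last step, rose more in the lung pair (interaction 1.18 ± 0.33, adjusted p = 0.017), and this difference was no longer called without BMDM of mouse 1. Without the BALF of mice 2 and 4 the 6 common rises were 1 and the 16 average rises 10, and the common call of Etfb was also lost without BMDM or PLF of mouse 4.

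The promoters of these 2 enzymes are shown for comparison with those of the chaperones, over the same window in RefSeq's GRCm38.p6, on the minus strand at chr5:115119297-115119596 for Acads and chr7:140116372-140116671 for Echs1. Neither holds GAANNTTC. Capitals mark TTTGAA in Acads, a run of letters common in cell cycle promoters, and in Echs1 the reverse complement of GGCGGGA, an E2F-type core.
Acads: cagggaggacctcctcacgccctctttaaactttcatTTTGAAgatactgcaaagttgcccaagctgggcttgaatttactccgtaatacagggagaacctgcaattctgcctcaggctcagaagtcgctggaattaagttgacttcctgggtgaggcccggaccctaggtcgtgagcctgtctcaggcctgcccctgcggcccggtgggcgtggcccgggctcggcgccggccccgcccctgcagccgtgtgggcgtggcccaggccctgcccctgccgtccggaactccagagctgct
Echs1: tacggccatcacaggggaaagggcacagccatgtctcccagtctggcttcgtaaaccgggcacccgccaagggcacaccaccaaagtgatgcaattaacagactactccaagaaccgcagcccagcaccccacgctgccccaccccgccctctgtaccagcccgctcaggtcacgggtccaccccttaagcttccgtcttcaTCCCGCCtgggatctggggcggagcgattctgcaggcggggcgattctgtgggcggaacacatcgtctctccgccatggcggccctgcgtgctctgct
TTTGAA was in 8.95% of common rise, 10.1% of common fall and 11.7% of tested promoters, and GGCGGGA in 86 of 380 common rise, 84 of 365 common fall and 1724 of 7797 tested promoters. CCAAT was in 37.4%, 36.2% and 38.5%, and TGANTCA, the AP-1 core, in 4.74%, 6.85% and 4.87%. TGACNNNGC, the core of the antioxidant element, was in 12.1% of common rise, 20.0% of common fall and 15.4% of tested promoters. Each motif was searched on both strands.

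Subunits of the respiratory chain encoded in the nucleus rose by small steps. Of 46 tested, 28 rose on average, none fell, and 9 rose in both pairs. Ndufs7, a subunit of complex I, had 76.9, 81.0 and 79.9 CPM in mexAM, against 32.8, 39.5 and 39.4 CPM in BALF, and 32.2, 40.4 and 46.8 CPM in BMDM, against 19.8, 19.7 and 26.5 CPM in PLF. Sdhb of complex II and Cox7a2 of complex IV averaged log2 rises of 0.73 ± 0.14 and 0.70 ± 0.13. The median log2 change was 0.62 in the lung pair and 0.39 in the other pair, against 0.01 in each over all genes, and 34 rose with scaling by library totals but 16 without the BALF of mice 2 and 4. The 9 common rises were 5 with the mouse as a block, with DESeq2, or without BALF of mouse 4, mexAM of mouse 2 or mexAM of mouse 4, 4 without BMDM or PLF of mouse 4, and 2 without the BALF of mice 2 and 4. Of 8 transcripts of the mitochondrial genome, 3 were lower in cultured cells and none higher. The 3 were 1 with scaling by library totals or without BALF of mouse 2, BMDM of mouse 2, PLF of mouse 4 or mexAM of mouse 4, and 0 without the BALF of mice 2 and 4.

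Cholesterol synthesis genes, the targets of SREBP2, rose in 15 of 23 and fell in 1 (0 without PLF or mexAM of mouse 4), with 6 common rises. In the lung pair 19 were higher, and in the other pair 6. Dhcr7, which catalyses the final step of the pathway, had 96.1, 98.9 and 74.0 CPM in mexAM, against 23.03, 22.6 and 23.3 CPM in BALF, and 8.38, 4.56 and 12.3 CPM in BMDM, against 1.98, 0.823 and 2.94 CPM in PLF, with log2 rises of 1.96 ± 0.27 and 2.03 ± 0.46. Nsdhl, a sterol dehydrogenase, rose more in the lung pair, with 179 ± 15.0 CPM in mexAM and 39.2 ± 4.51 CPM in BALF, and 16.5 ± 3.53 CPM in BMDM and 10.2 ± 0.439 CPM in PLF. The 6 common rises were 3 with the mouse as a block and 2 with DESeq2, 2 without BMDM of mouse 1 or 2 or PLF of mouse 1, and 3 without PLF of mouse 2 or 4. Dhcr7 was a common rise with any single library left out, and the other 5 lost the call with some library left out.

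Fatty acid synthesis genes also differed between the pairs. Of 13 genes tested, 9 were higher in mexAM than in BALF and none lower, while 2 were higher and 6 lower in BMDM than in PLF, and the interaction was positive and called for 9. Scd1, which makes monounsaturated fatty acids, had 633, 465 and 1036 CPM in mexAM, against 27.9, 7.91 and 42.1 CPM in BALF, and 2.65, 1.96 and 5.27 CPM in BMDM, against 79.1, 137 and 127 CPM in PLF. The log2 changes were 4.74 ± 0.45 and -5.09 ± 0.54, and their difference was 9.83 ± 0.70 (adjusted p = 2.76e-07). Acaca, the rate-limiting acetyl-CoA carboxylase, averaged 55.0 ± 16.9 CPM in mexAM and 12.8 ± 6.85 CPM in BALF, and 5.54 ± 2.17 CPM in BMDM and 55.9 ± 10.3 CPM in PLF. The 2 common rises of the list were Fads1 and Acsl3. Glycolysis genes rose in 8 of 14 and fell in 2, and hypoxia genes rose in 7 of 15 and fell in 2. Pdk1, which holds pyruvate back from mitochondria, had 190.4, 105 and 231 CPM in mexAM, against 20.2, 21.5 and 15.2 CPM in BALF, and 47.6, 41.7 and 48.6 CPM in BMDM, against 13.2, 14.8 and 22.9 CPM in PLF. The 8 glycolysis rises were 3 without the BALF of mice 2 and 4, 5 without BALF of mouse 1 or 2, and 4 without BMDM of mouse 4, PLF of mouse 2 or mexAM of mouse 4. The 7 hypoxia rises were 3 without the BALF of mice 2 and 4, and 4 without BALF of mouse 1 or 4, BMDM of mouse 4, PLF of mouse 2 or mexAM of mouse 4. No glycolysis gene kept a common call with every single library left out in turn.

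Genes of DNA replication copy the genome before a cell divides. Of 35 DNA replication genes tested, 19 were higher in cultured cells on average and 1 lower (0 with 8 of the 12 libraries left out in turn), with 19 higher in mexAM than in BALF, 5 higher in BMDM than in PLF and 4 common rises (Rfc1, Rfc2, Gins2 and Rrm1). Rfc1, a subunit of the clamp loader, had 104, 82.5 and 112 CPM in mexAM, against 47.5, 39.5 and 67.1 CPM in BALF, and 77.2, 92.6 and 91.3 CPM in BMDM, against 58.7, 39.5 and 40.0 CPM in PLF. Of 32 mitosis genes, 11 rose on average and none fell, with 19 higher in mexAM than in BALF, 3 higher in BMDM than in PLF and Cdk1 and Kif23 common. The common rises were 6.25% of the list, near the 4.75% of all genes tested. Cdk1, the kinase that drives mitosis, had 51.8, 44.2 and 56.3 CPM in mexAM, against 8.37, 14.7 and 32.2 CPM in BALF, and 25.6, 17.6 and 32.8 CPM in BMDM, against 7.91, 11.5 and 14.1 CPM in PLF. The proliferation marker Mki67 had 115, 96.4 and 102 CPM in mexAM, against 28.6, 35.0 and 64.5 CPM in BALF, a rise, and 19.4, 22.8 and 35.7 CPM in BMDM, against 30.3, 42.0 and 47.1 CPM in PLF, which was not called. Its interaction was 1.92 ± 0.42 (adjusted p = 0.00287). The cell cycle counts leaned on BMDM of mouse 4, the highest of its group for Cdk1 and Mki67: without it 4 mitosis genes rose on average and 1 replication gene was common. Leaving out BALF of mouse 1 gave 7 average mitosis rises and leaving out BMDM of mouse 2, scaling by library totals or dropping the filter on low counts gave 17. The 4 common replication rises were 2 without PLF of mouse 2 or mexAM of mouse 1, and without the BALF of mice 2 and 4 they were 2 and the average rises 11. Rfc1 was a common rise with any single library left out. The call of Gins2 was lost without BMDM of mouse 4, and that of Rfc2 without BALF, BMDM or PLF of mouse 4, PLF of mouse 2 or mexAM of mouse 1. That of Rrm1 was lost with DESeq2, with another scaling (RLE size factors), without robust estimation and without ribosomal RNA loci. It was also lost without any single BMDM or mexAM library, BALF of mouse 2, or PLF of mouse 1 or 2. The common mitosis rises were 0 without BMDM of mouse 4 or PLF of mouse 1, and 1 with DESeq2 or without BALF of mouse 2, BMDM of mouse 1, or PLF of mouse 2 or 4.

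Regulators of the entry into the cycle went several ways. Cdkn2b (p15INK4b), an inhibitor of CDK4 and CDK6, fell in both pairs, with 2.91, 1.49 and 3.15 CPM in mexAM, against 27.2, 20.3 and 18.8 CPM in BALF, and 0, 0 and 1.76 CPM in BMDM, against 52.7, 36.2 and 55.9 CPM in PLF. Its neighbour Cdkn2a, which encodes p16INK4a and p19ARF, changed in opposite directions, with 61.1, 102 and 50.8 CPM in mexAM, against 4.89, 1.13 and 4.48 CPM in BALF, and 0, 0 and 2.34 CPM in BMDM, against 10.5, 6.58 and 11.2 CPM in PLF. Mdm2, which degrades p53 and is itself a p53 target, fell in both pairs, with log2 changes of -1.03 ± 0.22 and -1.06 ± 0.22 (interaction 0.03 ± 0.31, not called). Ccnd2 (cyclin D2) was higher in mexAM than in BALF and lower in BMDM than in PLF, with 2196, 2318 and 1985 CPM in mexAM, 231, 280.1 and 1005 CPM in BALF, 48.1, 49.5 and 69.6 CPM in BMDM and 115, 320.1 and 348 CPM in PLF. Cytosolic ribosomal protein genes were lower on average in 21 of 36 and higher in none, but 25 were lower in BMDM than in PLF, and 2 lower and 3 higher in mexAM than in BALF. Scaling by library totals left 13 lower, and the interaction, positive for 15, was called for 8 without BMDM of mouse 1 or 2 and 5 without the BALF of mice 2 and 4. Amino acid genes of the ATF4 response were lower in 6 of 15 and higher in none, a count of 6 with any single library left out, with an interaction called for 9. The importer genes Slc7a1 and Slc3a2 were common falls (-2.37 ± 0.18 and -1.45 ± 0.18 on average), whereas the serine synthesis gene Psat1 had 146, 102 and 102 CPM in mexAM, against 16.7, 21.5 and 21.5 CPM in BALF, and 12.8, 6.52 and 29.3 CPM in BMDM, against 31.6, 87.2 and 81.8 CPM in PLF.

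Lysosomal genes rose in 20 of 36 and fell in 3. In the pairs, 23 were higher and 3 lower in BMDM than in PLF, 7 higher and 6 lower in mexAM than in BALF, and the interaction was negative for 18. The 4 common rises were Ctsd, Ctsz, Grn and Cd63. Cd63, a tetraspanin of late endosomes, had 1535, 1198 and 525 CPM in mexAM, against 274, 342 and 309 CPM in BALF, and 1076, 1117 and 1129.5 CPM in BMDM, against 106, 170.3 and 214 CPM in PLF. Grn (progranulin), a regulator of lysosomal enzymes, rose by 0.84 ± 0.25 and 0.85 ± 0.25. Ctsd, the aspartic protease cathepsin D, averaged 9212 ± 2122 CPM in mexAM and 4001 ± 864 CPM in BALF, and 2738 ± 653 CPM in BMDM and 905 ± 407 CPM in PLF. The 4 common rises were 2 without the BALF of mice 2 and 4 and 7 with scaling by library totals, and that of Grn was lost without BALF of mouse 4 or mexAM of mouse 1. Scarb1, a receptor for high-density lipoprotein, also rose in both pairs (1.36 ± 0.22 and 1.48 ± 0.26). Slc40a1 (ferroportin), the only known iron exporter, had 12.8, 16.4 and 5.91 CPM in mexAM, against 140.3, 106 and 124 CPM in BALF, and 248, 227 and 147 CPM in BMDM, against 15.2, 1.65 and 3.53 CPM in PLF, an opposite change with an interaction of -8.31 ± 0.66.

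**Figure D4:**
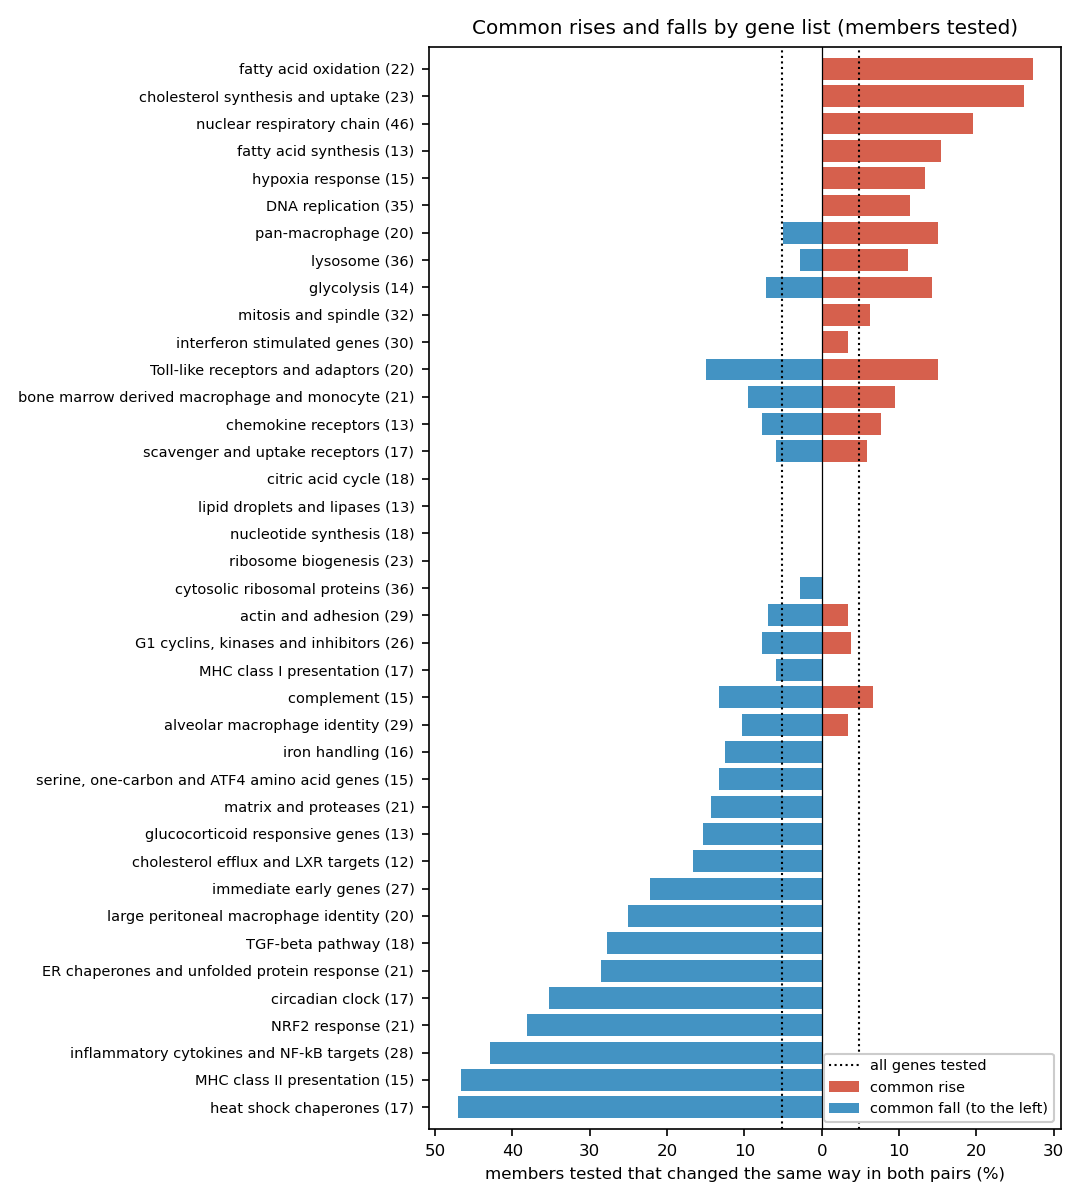
Share of the tested members of each list that rose in both pairs (red, to the right) or fell in both pairs (blue, to the left), in percent, for the lists with 12 or more members tested (number in brackets). Dotted lines give the 4.75% and 5.08% of all genes tested. Heat shock, MHC class II and inflammatory genes held the largest shares of common falls, and fatty acid oxidation and cholesterol synthesis the largest of common rises.

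The genes with the most negative interaction were higher in BMDM than in PLF and low in mexAM. Clec4a3, a C-type lectin-like receptor, had 2.33, 2.98 and 4.73 CPM in mexAM, against 131, 173 and 99.4 CPM in BALF, and 200.3, 157 and 146 CPM in BMDM, against 8.57, 13.2 and 16.5 CPM in PLF. Its neighbour in the gene cluster, Clec4a2, had 7.57, 5.46 and 4.33 CPM in mexAM, against 85.8, 63.3 and 84.1 CPM in BALF, and 258, 244 and 245 CPM in BMDM, against 7.91, 9.05 and 11.8 CPM in PLF. Both were thus opposite changes, with interactions of -8.94 ± 0.44 and -8.45 ± 0.35. Fcgr1, the high-affinity IgG receptor, had 0.582, 1.49 and 0.788 CPM in mexAM, against 9.77, 3.39 and 12.5 CPM in BALF, and 110.3, 97.8 and 126 CPM in BMDM, against 1.32, 0.823 and 1.77 CPM in PLF (interaction -9.41 ± 0.66, adjusted p = 3.28e-08). Wfdc21, a whey acidic protein family gene, had 7.57, 3.48 and 4.73 CPM in mexAM, against 388, 359 and 312 CPM in BALF, and 39.3, 26.7 and 80.8 CPM in BMDM, against 3.30, 13.99 and 5.88 CPM in PLF. Emb (embigin), a chaperone of lactate transporters, was at 0 in 1 of 3 mexAM libraries and lower there than in BALF by a ratio of 108 with a counting interval of 36.5 to 530.1, and it had 303, 274 and 210.1 CPM in BMDM, against 89.0, 50.2 and 50.01 CPM in PLF. Ltf (lactoferrin), a neutrophil gene, had 58.7, 37.8 and 131 CPM in BMDM, against 1.32, 1.65 and 0 CPM in PLF, and at most 3.58 CPM in a lung library, and its interaction was not called without the BALF of mice 2 and 4. Gpr141, an orphan receptor, Hpgd, which inactivates prostaglandins, and Ptpro, a receptor phosphatase, were likewise high in BMDM and under 2 CPM in every mexAM library.

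The most positive interactions belonged to genes high in mexAM and to genes high in PLF. Cyp4a12b, a fatty acid hydroxylase with close paralogues in its cluster, had 974, 519 and 502 CPM in mexAM, against 2.09, 2.26 and 0 CPM in BALF, and 0.441, 0.652 and 0.585 CPM in BMDM, against 0.659, 1.65 and 1.77 CPM in PLF. Vipr2, a receptor for vasoactive intestinal peptide, had 122, 192 and 56.7 CPM in mexAM and no count in BALF, which makes it at least 135-fold higher when BALF is set to 3 counts summed over its libraries. It had no count in BMDM and 1.98, 1.65 and 0.588 CPM in PLF. Fabp7, a fatty acid binding protein, had 19.8, 191 and 24.0 CPM in mexAM, against 0.698, 1.13 and 0 CPM in BALF, and 0.882, 0.652 and 4.10 CPM in BMDM, against 92.3, 126 and 138 CPM in PLF, an opposite change that was not called without the BALF of mice 2 and 4. Enpp5, of the ectonucleotide pyrophosphatase family, had 61.1, 75.0 and 47.6 CPM in mexAM and at most 2.79 CPM in BALF, and at most 1.17 CPM in BMDM, against 4.61, 6.58 and 8.83 CPM in PLF. In contrast, C4b (complement C4), Arg1 (arginase) and Cd38 (an NAD glycohydrolase) were high in PLF alone. C4b had no count in BMDM, against 233, 159.6 and 198 CPM in PLF, at least 366-fold lower in BMDM, and in the lung pair 1 mexAM library held 0.394 CPM and no BALF library a count. Arg1 had 1 count in BMDM, against 402, 318 and 197 CPM in PLF, lower in BMDM by a ratio of 1653 with a counting interval of 296.2 to 65350, and it had 12.6 CPM in mexAM of mouse 4. The B cell genes Tnfrsf13c and Bank1 followed the B cell sum, with 43.5, 101.22 and 84.1 CPM and 165, 268 and 222 CPM in PLF. The interactions of Arg1 and C4b were not called without mexAM of mouse 4, nor was that of Tnfrsf13c without mexAM of mouse 2 or without the BALF of mice 2 and 4. For genes at 0 in a group the fitted interaction depends on the prior count and gives no size.

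**Figure D5:**
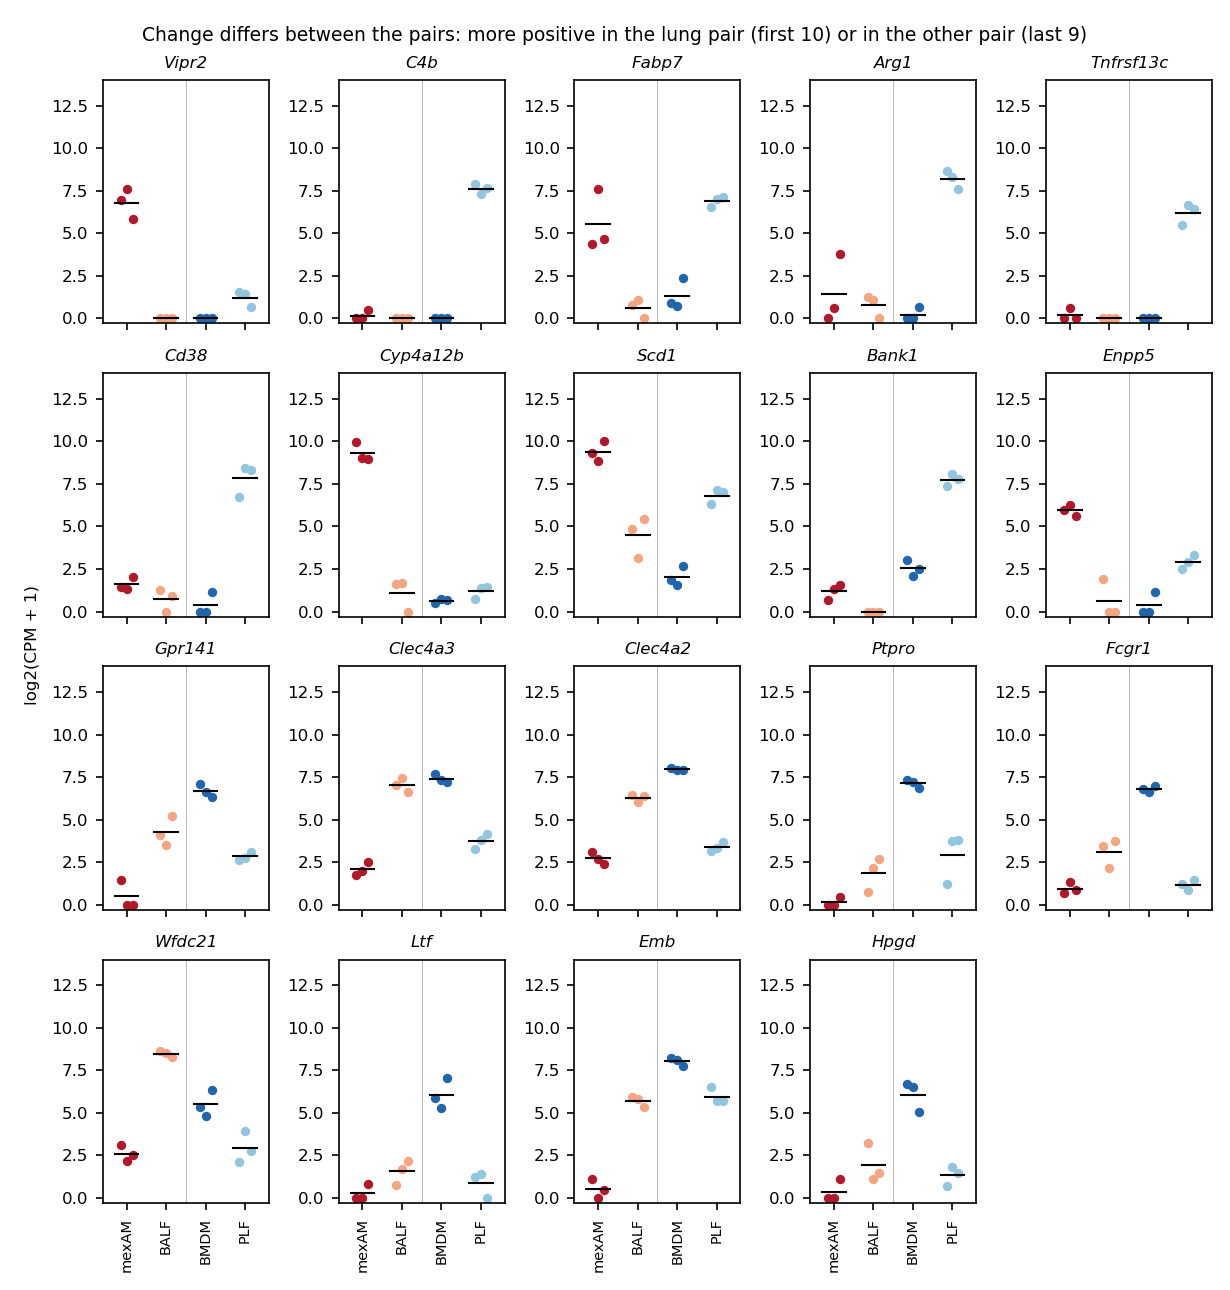
Level in each library, as log2(CPM + 1), of the genes with the most positive interaction or opposite change (first 10 panels) and the most negative (last 9), with a bar at the mean of the 3 libraries of mexAM, BALF, BMDM and PLF. Cyp4a12b, Vipr2 and Enpp5 are high in mexAM, C4b, Arg1 and Cd38 are high in PLF, and the last 9 genes have a lower mean in mexAM than in BALF and a higher mean in BMDM than in PLF.

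Genes typical of 1 origin were read in all 4 groups. Siglecf, the alveolar macrophage lectin, had 552, 562 and 438 CPM in mexAM, against 360.1, 324 and 249 CPM in BALF, and 1.32, 2.61 and 5.85 CPM in BMDM, against 3.95, 11.5 and 4.71 CPM in PLF. Itgam (CD11b) had 4.08, 4.47 and 5.12 CPM in mexAM, against 5.58, 6.78 and 10.7 CPM in BALF, and 887, 709 and 761 CPM in BMDM, against 1603, 1875 and 2200.5 CPM in PLF. Gata6 was counted in PLF alone, at 45.5, 56.8 and 50.6 CPM. Of 20 large peritoneal macrophage genes tested, 20 were lower in BMDM than in PLF, while 5 were lower in mexAM than in BALF. The list holds genes typical of cells in PLF, so the first count follows from that choice and is no result on culture. In BALF the list summed to at most 484.3 CPM, and of its 22 members 9 were at 0 in mexAM and 4 in BALF. The second count thus compares low levels. Of 29 alveolar macrophage genes, 7 were higher and 10 lower on average, with 1 common rise (Fabp5) and 3 common falls, with 0 of each without the BALF of mice 2 and 4, where 4 were higher. Over all genes tested 20.7% were higher and 20.0% lower on average, with 4.75% common rises and 5.08% common falls. The counts of higher genes and of common rises in this list were thus near those shares. Chil3, a chitinase-like protein, had 2306, 2108 and 3373 CPM in mexAM, against 12171, 9069 and 7601 CPM in BALF, and 193.65, 205 and 325 CPM in BMDM, against 97.5, 133 and 67.7 CPM in PLF, an opposite change. Csf1r, the M-CSF receptor, whose exons overlap Hmgxb3 on the opposite strand, was another, with 38.4, 32.3 and 15.4 CPM in mexAM, against 108, 90.4 and 177 CPM in BALF, and 1579, 1560.1 and 1266 CPM in BMDM, against 469.9, 517 and 509.5 CPM in PLF (interaction -3.70 ± 0.41). Adgre1 (F4/80) averaged 229 ± 33.7 CPM in mexAM and 241 ± 36.8 CPM in BALF, and 1304 ± 78.7 CPM in BMDM and 663 ± 57.1 CPM in PLF, and its average rise of 0.45 ± 0.13 was not called without the BALF of mice 2 and 4. Maf, a transcription factor that restrains macrophage self-renewal in mice, rose in both pairs, with 18.1, 33.3 and 29.9 CPM in mexAM, against 6.28, 4.52 and 4.48 CPM in BALF, and 2674, 2659 and 1586 CPM in BMDM, against 46.8, 74.9 and 81.2 CPM in PLF. The general macrophage genes Fcgr3 and Tyrobp were common rises with no interaction called (0.72 ± 0.17 and 0.66 ± 0.14 on average). The common call was lost for Fcgr3 without BALF of mouse 4, BMDM of mouse 1 or 2, PLF of mouse 2 or 4, or mexAM of mouse 1, and for Tyrobp without BALF of mouse 2 or 4 or mexAM of mouse 2 or 4.

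The cultures of pooled lavage, outside every test, gave levels for the lung genes above. Fads1 ranged from 40.2 to 102 CPM over the 4 pool libraries and Cd93 from 49.5 to 423 CPM. Slc7a11 ranged from 41.8 to 135.5 CPM, Fn1 from 6.43 to 30.1 CPM and Cd2 from 0.643 to 8.78 CPM, each below every BALF library. Scd1 ranged from 351.4 to 849.5 CPM and Vipr2 from 45.2 to 125 CPM, each above every BALF library.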

How the data were processed

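RNA of 16 libraries was sequenced from the 3' end with the QuantSeq FWD kit and its molecular identifier module, per the labels' protocols. The authors deposited raw counts per Ensembl gene, on GRCm38 (mm10) per the submitters' processing notes. The aligner, the counter, whether it used strand, and whether identifiers were collapsed are not stated there or in the labels. The deposited files held 47643 gene identifiers each, of which 47224 were named with GENCODE M21, and 5 lines without a gene. Of these lines, that for reads outside every gene held 14.2% ± 1.16 of all that a file counted in mexAM, 20.5% ± 0.809 in BALF, 24.7% ± 3.74 in BMDM and 29.0% ± 1.22 in PLF (SD, n = 3 each). No 2 files were identical.

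The 12 single-mouse libraries were fitted together in edgeR 4.0.16 (R 4.3.3, limma 3.58.1) with its robust quasi-likelihood test, filterByExpr and TMM scaling, which left 10011 genes and 8 residual degrees of freedom. The change with culture was the mean of mexAM minus BALF and BMDM minus PLF, and the interaction was their difference. Calls were made at a Benjamini-Hochberg adjusted p under 0.05 over all genes. The SE given with a log2 change was back-calculated, as its absolute value divided by the square root of the test's F statistic. It is therefore approximate, above all for genes near 0 in a group. No source says beyond the mouse number how the samples were taken, so p-values measure the spread between these samples. Depth limits precision for low genes. Where a group had no count, a fold was taken against 3 counts over the group, and such floors and 95% intervals cover counting error only.

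The labels give the same mouse numbers in all 4 groups, so samples are paired by animal. Their deviations from the group means correlated at -0.118 to 0.22 over 18 pairs (median -0.0207), with 2 over 0.1, and the fit with the mouse as a block was an alternative. Other alternatives were DESeq2 1.42.0, other scalings and filters, and leaving out libraries, among 21 settings. The calls of all list members were repeated under each setting. Genes were named by size: the 12 largest common changes in each direction, the 8 largest interactions, the 4 largest opposite changes, up to 4 members of a list, and a fixed panel. Further list members were named because they changed in both pairs, or apart, and so after their values were seen. The 50 gene lists held 991 distinct genes, of which 1 was not matched and 121 were matched but not tested. Members, lists and tests were chosen with earlier results of these data known. The scripts were tested on simulated data. Promoter windows are from RefSeq's table for GRCm38.p6.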

Additional observations from a re-analysis of the deposited data

Results flagged for a closer look

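The change from fresh to cultured cells differed between lung and other origin for 2098 genes by edgeR's quasi-likelihood interaction test. Values below are the lung log2 change minus the other one. Among common rises, the difference was -5.57 for Rab3il1, -5.6 for Ms4a7, -3.94 for Trem2, -3.86 for Lst1, -3.19 for B3gnt8, -3.11 for S100a8 and -2.62 for Gsn, and it was 1.67 for Cd93 and 2.79 for Acsl3. Among common falls it was -3.72 for Hspa1a and -3.55 for Pdlim1, and 3.76 for Slpi, 2.94 for Cxcl3, 2.12 for Fn1 and 1.23 for Slc7a11. The call was lost for Cxcl3 without BALF of mouse 1, BMDM of mouse 1, PLF of mouse 2 or 4, or mexAM of mouse 1 or 2, for Slc7a11 without BALF of mouse 1 or 4, BMDM of mouse 1 or 2, or mexAM of mouse 2, and for Hspa1a without any single BMDM library. The most negative were Fcgr1 at -9.41, Gpr141 at -9.27, Clec4a3 at -8.94, Wfdc21 at -8.8, Ltf at -8.71, Emb at -8.58, Hpgd at -8.47 and Clec4a2 at -8.45, with Ptpro at -7.66. The most positive were Vipr2 at 14.89, C4b at 12.96, Fabp7 at 12.85, Arg1 at 12.62, Tnfrsf13c at 11.59, Cd38 at 10.47, Cyp4a12b at 9.97, Scd1 at 9.83, Bank1 at 9.67 and Enpp5 at 9.59. Where a group had no count (BALF and BMDM for Vipr2, C4b and Tnfrsf13c, and BALF for Bank1), the fitted value depends on the prior count and is not a size. The call was lost without mexAM of mouse 4 for C4b and Arg1, without mexAM of mouse 2 for Tnfrsf13c, and without the BALF of mice 2 and 4 for Tnfrsf13c, S100a8, Slc7a11, Hspa1a, Ltf and Ptpro. The other pair also differs in origin, so origin and culture cannot be told apart there.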

How the results depend on the processing

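Without the BALF of mice 2 and 4, 1318 genes were called for mexAM against BALF, 180 as common rises, 266 as common falls and 195 as opposite changes. Adjusting the larger p of the pairs gave 270 common rises and 310 common falls, and asking for at least 2-fold in both gave 270 and 300. With 1 library left out, genes called for culture ran from 3648 to 3996 (1859 to 2023 higher and 1786 to 1973 lower) and for the interaction from 1747 to 2383. They ran from 2288 to 3376 for mexAM against BALF, 3004 to 3983 for BMDM against PLF, 339 to 451 for common rises, 402 to 491 for common falls and 272 to 432 for opposite changes. With the mouse as a replicate block, the culture effect was called for 3886 genes, the interaction for 1974, a common rise for 427 and a common fall for 481. Of 8944 values of 213 named genes under these alternatives, 8562 kept direction and side of the threshold, 268 lost the call, 114 gained it and 0 reversed. The cause was not tested. Depth of about 1 CPM per count limits genes near 0, and the lone BALF library in the first setting is assumed to vary like the other groups.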
